A study of Homo sapiens with 12 samples.

Results

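DNA replication and G1/S genes were followed by their RNA levels in HepG2 cells, a human hepatocellular carcinoma line, when thiosulfate sulfurtransferase (TST, rhodanese) was silenced or overexpressed. The set was a list of 46 gene symbols out of the 57500 genes counted, chosen by function but with earlier results of these data known. Shares of the set set beside those of all genes are therefore descriptions. Each symbol matched 1 Ensembl identifier of the count files. RNA-seq libraries came from 3 groups of 4 replicates, all kept in medium with 400 µM glycine for 24 h. WT cells were the control, and the labels and methods do not say whether they carried a control vector. shTST cells had received a TST shRNA plasmid by lentiviral transduction. overTST cells had received a lentiviral vector in which the CMV promoter drives a codon-optimized TST coding sequence. The methods describe blasticidin selection of transduced cells and name no cloning step, so each modified line is described here as a selected population and not as a clone. In this design the level of TST, the transduction and selection, and other differences between lines cannot be told apart. The question was whether cells with less or more of this cyanide-detoxifying enzyme differ from WT, and from each other, in the genes that copy DNA.

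Replication starts when the origin recognition complex, CDC6 and CDT1 load the MCM2-7 helicase onto DNA in G1, a step that geminin (GMNN) blocks once S phase has begun. CDC45 and the GINS complex then switch the helicase on, polymerase alpha-primase lays down primers, and polymerases delta and epsilon copy both strands while held by the PCNA clamp, which replication factor C loads. Many of these genes are textbook targets of the E2F transcription factors, which are set free from RB when cyclin D and cyclin E kinases act, and in proliferating hepatoma lines they are expressed throughout.

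Promoter sequences are shown because 1 letter pattern was found in a larger share of these promoters than of all promoters. RefSeq promoter windows of 300 bases (250 before and 50 after the annotated gene start, GRCh38.p14) matched 40 of the 46 genes. The pattern TTTNGCGC, a core of the E2F site searched on both strands, lay in 14 of these 40 windows, 35.0% (95% Wilson interval 22.13 to 50.49%). It lay in 1.80% of all 27305 promoters of the table, and in 3.0% of the 10616 promoters of genes tested in shTST against WT. Related lists held it too, in 5 of 15 promoters of nucleotide and S-phase chromatin genes (33.33%), 5 of 26 of other replication fork genes (19.23%), 3 of 23 of CDK, RB and E2F regulators (13.04%) and 2 of 16 of mitosis markers (12.5%). The median GC content was 65.8% in the 40 windows, 58.0% over all promoters and 65.3% over the tested ones. Windows of 30 bases around the pattern follow, 5′ to 3′ on the strand of the gene, for those genes described library by library below that held it, for E2F1, which is an E2F gene itself, and for MCM6, which held it in 2 separate places. Capitals mark the pattern on either strand, with overlapping matches joined. The positions were chr17:40287875-40287904 (plus strand) for CDC6, chr16:46689525-46689554 (plus) for ORC6, chr20:25407667-25407696 (plus) for GINS1, chr3:127598404-127598433 (plus) for MCM2, chrX:24693770-24693799 (plus) for POLA1, chr12:132687342-132687371 (minus) for POLE, chr20:33686387-33686416 (minus) for E2F1, and chr2:135876575-135876604 and chr2:135876513-135876542 (both minus) for MCM6.
CDC6: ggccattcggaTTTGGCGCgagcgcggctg
ORC6: ttgatgcgcatGCGCAAAAggaagaccctg
GINS1: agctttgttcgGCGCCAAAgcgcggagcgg
MCM2: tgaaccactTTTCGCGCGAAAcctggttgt
POLA1: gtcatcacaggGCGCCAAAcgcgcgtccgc
POLE: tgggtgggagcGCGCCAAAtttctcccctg
E2F1: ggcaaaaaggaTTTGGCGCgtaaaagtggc
MCM6, distal: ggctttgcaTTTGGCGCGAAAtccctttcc
MCM6, proximal: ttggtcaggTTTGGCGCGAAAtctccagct
The windows of PCNA, UHRF1, GMNN, TK1 and CCNE1 held no match, which says only that these letters were not there.

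Library depth was 28866175 to 45120508 counts in WT, 27527854 to 33865386 in shTST and 22911380 to 27414142 in overTST. All 4 overTST libraries were shallower than every library of WT and of shTST. The exact two-sided permutation p was 0.0286 in both comparisons, the lowest value this design can give. Mitochondrial transcripts made up 6.91 to 11.98% of counts in WT, 6.84 to 8.65% in shTST and 10.84 to 11.73% in overTST, and the part of this in the results was not tested. TST itself was at 47.2, 47.5, 52.8 and 48.5 CPM (counts scaled to the normalized library size) in the WT libraries, at 33.0, 33.6, 36.6 and 33.5 CPM in shTST and at 51.8, 56.0, 61.6 and 62.1 CPM in overTST. The shTST libraries therefore lay below all others, and overTST overlapped WT in 1 library, although these counts need not include the codon-optimized transgene. All 10 hepatocyte and hepatoma markers were expressed, with a summed level of 22800 to 30570 CPM. Of 5 leukocyte markers, PTPRC and the T cell marker CD3E stayed under 1 CPM on average in every group, while CD68, CD14 and lysozyme did not. The summed level of the 5 was 1603 to 1679 CPM in WT, 1333 to 1489 CPM in shTST and 1502 to 1748 CPM in overTST, most of it from lysozyme (LYZ, 1327 to 1741 CPM over all libraries), and the part of these markers in the results was not tested. Of 4 endothelial markers 3 stayed under 1 CPM, among them KDR at 0 in all libraries, and the 4 summed to 2.51 to 3.29 CPM in WT, 1.81 to 2.16 CPM in shTST and 3.396 to 3.91 CPM in overTST. Of 6 fibroblast markers 4 stayed under 1 CPM, and the 6 had a summed level of 21.6 to 25.2 CPM in WT, 17.0 to 19.4 CPM in shTST and 15.9 to 17.9 CPM in overTST.

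All 46 genes passed the filter on low counts in every comparison. Per kilobase of exon, WT levels spanned from 232 RPKM for PCNA, the sliding clamp, to 0.303 RPKM for the cyclin E gene CCNE2, with a median of 17.1 RPKM. After PCNA came the salvage enzyme TK1 at 130 ± 5.33 RPKM, the helicase subunits MCM3 at 118 ± 3.40 RPKM and MCM7 at 105 ± 1.69 RPKM, cyclin D1 (CCND1) at 85.8 ± 6.03 RPKM and thymidylate synthase (TYMS) at 74.9 ± 3.39 RPKM (SD, n = 4 each). Subunits of one complex were not level with each other. Within the MCM2-7 helicase, MCM3 stood highest and MCM6 lowest at 17.2 ± 1.05 RPKM, and within polymerase delta POLD2 was at 61.0 ± 2.21 RPKM while POLD3 was at 2.63 ± 0.0659 RPKM (SD, n = 4 each). GINS2 was at 24.2 RPKM, GINS1 at 11.5 RPKM, GINS4 at 5.77 RPKM and GINS3 at 3.73 RPKM. Replicates of a group differed little, with a median within-group SD of 0.0743 on the log2 CPM scale over the 46 genes and a range of 0.0399 to 0.4075, the highest for CCNE2, which had 513 counts over all 12 libraries.

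**Figure D1:**
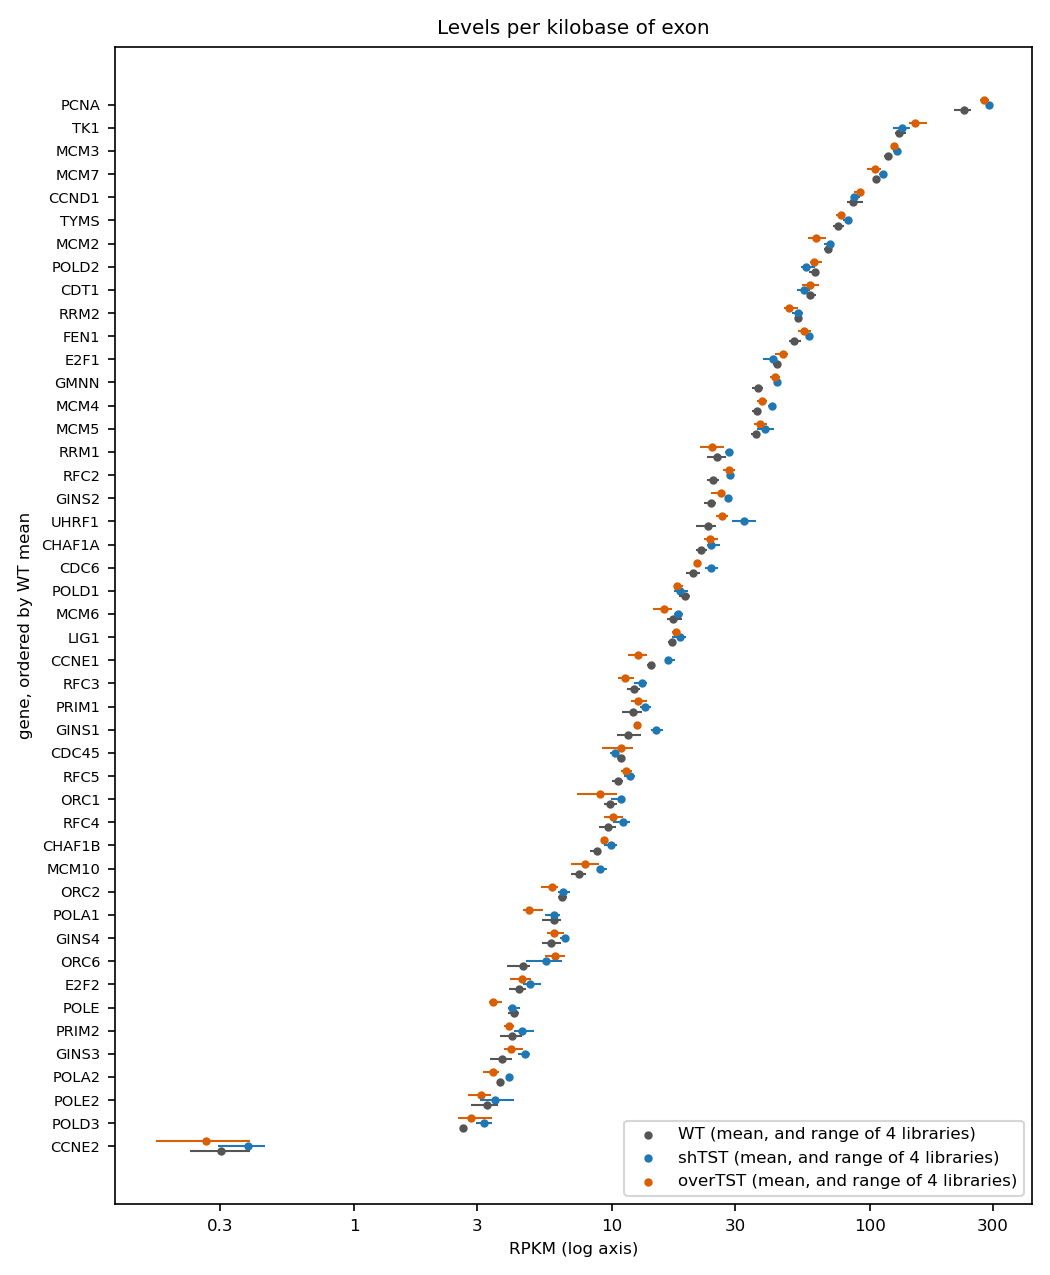
WT, shTST and overTST levels of the 46 genes in RPKM (log axis), ordered by the WT mean. Points are group means and lines the range of 4 libraries. PCNA stands highest at 232 RPKM in WT and CCNE2 lowest at 0.303 RPKM, and for most genes the 3 groups lie close together.

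In shTST cells the replication genes lay higher than in WT by a small amount. Of the 46 genes, 20 were higher in shTST than in WT at an adjusted p of 0.05 or less (edgeR's quasi-likelihood test, Benjamini-Hochberg over 14584 genes) and 0 were lower. This was 43.5% of the set, while 16.1% of all genes tested passed, 6.69% higher and 9.40% lower. Positive log2 fold changes were found for 39 of the 46 genes, with a median of 0.14, beside a median of 0.00401 over all genes tested. At an unadjusted p under 0.05 there were 29 of the 46, and the share of all genes at that threshold was not computed. The log2 fold changes of the 20 called genes ran from 0.14 to 0.47, the latter a rise of 38.4%. With upper-quartile scaling, which moved the direction of calls over all genes from 975 higher and 1371 lower to 1284 and 1151, 22 of the 46 genes were higher and 0 lower.

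Summed over the 46 genes, the libraries stood at 5529, 5359, 5484 and 5352 CPM in WT, 5750, 5828, 6022 and 5873 CPM in shTST and 5703, 5846, 5396 and 5483 CPM in overTST. Every shTST library was thus above every WT library, and the overTST libraries spread across both. In each shTST library 35 to 40 of the 46 genes were above their WT mean, in each overTST library 19 to 33. In bulk RNA, a change in the share of cells in S phase and a change in the RNA of these genes per cell cannot be told apart. Leaving out 1 library at a time left 15 to 19 of the genes called in shTST, and the 15 were reached without shTST replicate 4. Called in all of the 19 other settings tried were 13 genes, CDC6, GMNN, MCM4, MCM10, GINS1, GINS2, GINS3, POLD3, PCNA, RFC2, FEN1, CCNE1 and UHRF1.

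**Figure D2:**
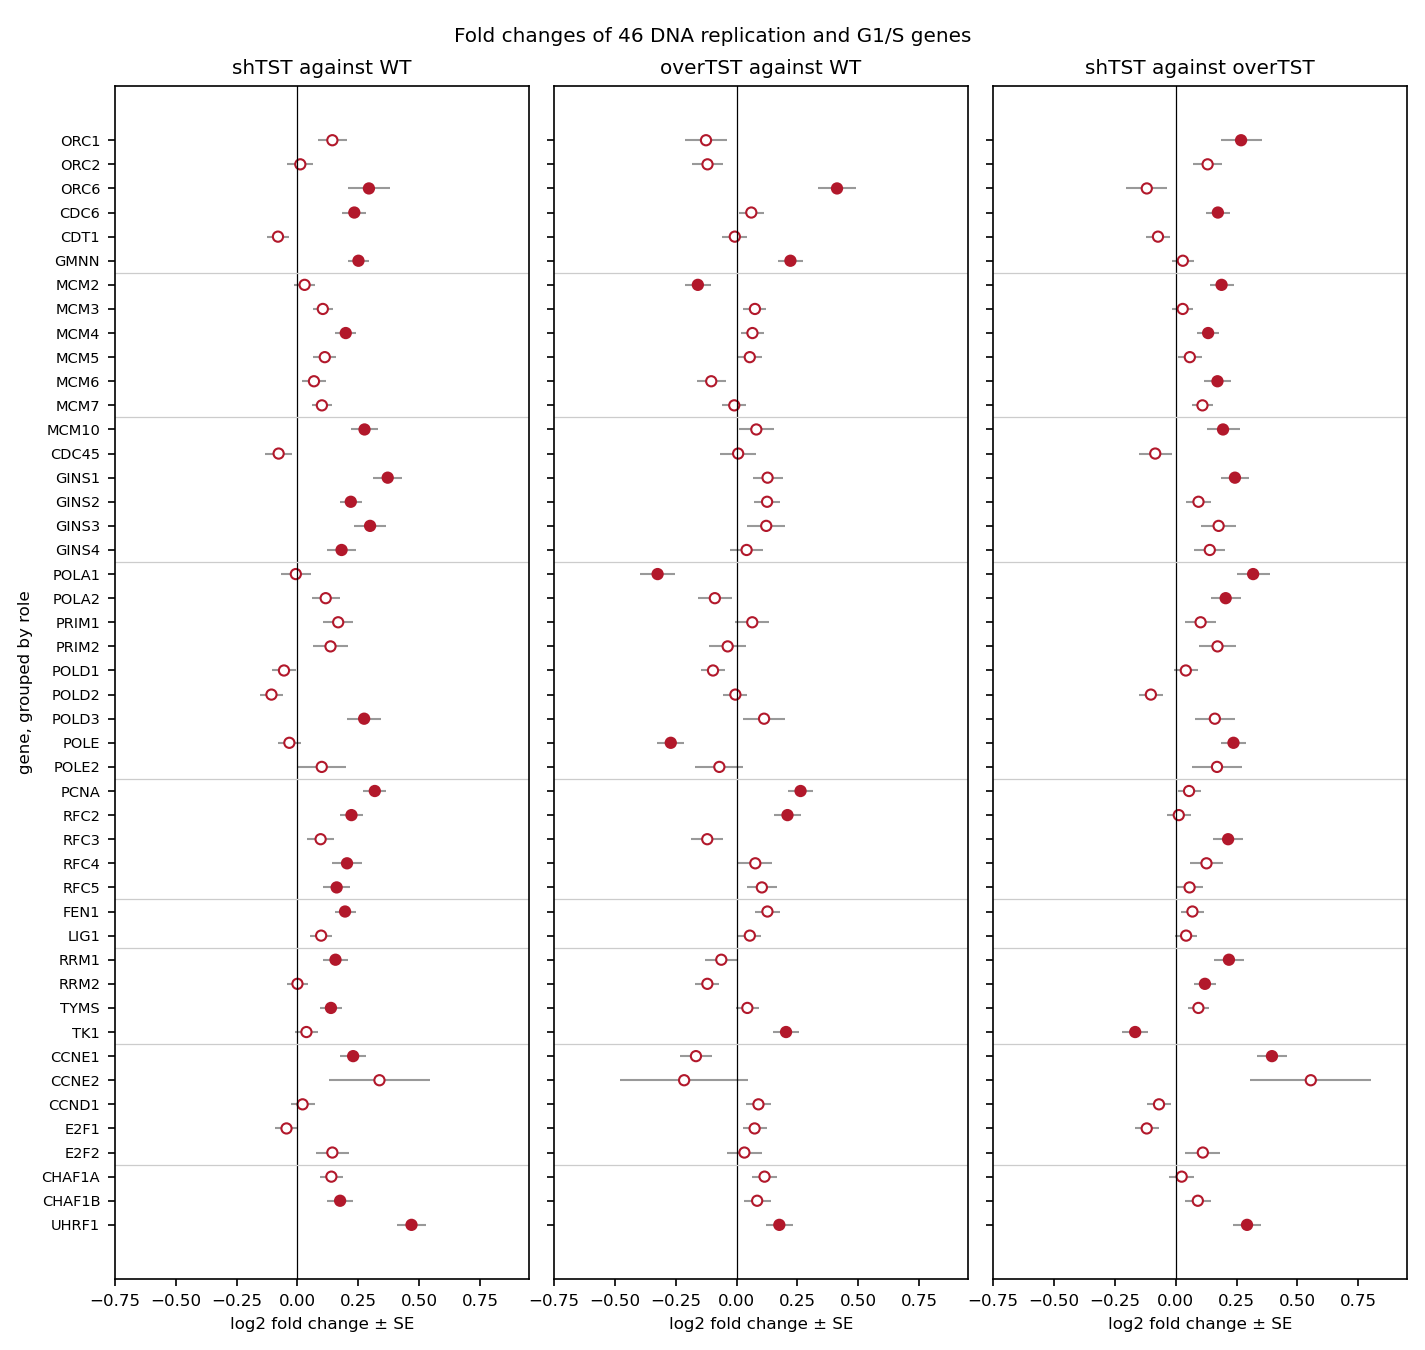
Log2 fold changes with standard errors for the 46 genes, grouped by role and separated by grey lines, in shTST against WT, overTST against WT and shTST against overTST. Filled points passed an adjusted p of 0.05 (edgeR). In the first panel all 20 filled points are above 0, in the second 6 are above and 3 below, and in the third 15 are above and 1 below.

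Among the 6 origin licensing genes, 3 were higher in shTST. CDC6, the loader that brings MCM2-7 to the origin (ENSG00000094804, chr17:40287633-40304657, plus strand), was at 108, 112, 102 and 98.6 CPM in WT and at 125, 118, 132 and 120 CPM in shTST. No shTST library fell into the WT range, and the log2 fold change was 0.23 (SE 0.0489, edgeR adjusted p = 0.00247). GMNN, the licensing inhibitor (ENSG00000112312, chr6:24774931-24786099, plus), was at 91.2, 86.2, 94.9 and 91.3 CPM in WT and at 109, 109, 107 and 108 CPM in shTST, a log2 fold change of 0.25 (SE 0.0431, edgeR adjusted p = 0.000475) with tightly grouped shTST libraries. ORC6, the smallest subunit of the origin recognition complex (ENSG00000091651, chr16:46689643-46698394, plus), rose by 0.29 on the log2 scale (edgeR adjusted p = 0.0204) from 16.9, 19.7, 20.7 and 20.6 CPM to 27.6, 20, 25.04 and 22.8 CPM. These ranges overlapped in shTST replicate 2, and the call was lost with WT replicate 1 (edgeR adjusted p = 0.0721) or shTST replicates 1 (0.0931) or 3 (0.0538) left out. CDT1, the partner of CDC6 in loading and the target of GMNN, was at 196 ± 6.97 CPM in WT and 185 ± 9.33 CPM in shTST (SD, n = 4 each), with a log2 fold change of −0.08 (edgeR adjusted p = 0.242). ORC1 and ORC2 did not pass either, with values of 0.14 and 0.01.

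The ratio of GMNN to CDT1 per exon length was computed after these values were seen and is given without a test. It was 0.630, 0.612, 0.621 and 0.636 in the WT libraries, 0.847, 0.796, 0.734 and 0.771 in shTST and 0.770, 0.698, 0.748 and 0.713 in overTST. Both modified lines lay above WT in every library and overlapped each other.

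At the threshold used, the helicase activators held more calls than the MCM2-7 helicase itself. All 6 MCM2-7 genes had positive values in shTST, from 0.03 for MCM2 to 0.20 for MCM4 on the log2 scale. MCM4 alone passed (SE 0.0424, edgeR adjusted p = 0.00288). At an unadjusted p under 0.05 there were 4 of the 6, beside 5 of the 6 activation genes. With DESeq2, MCM3 (adjusted p 0.0255) and MCM7 (0.0240) passed as well. MCM5 (edgeR adjusted p = 0.0157) and MCM7 (0.0100) passed with a correction for GC content. Of the 6 helicase activation genes 5 passed, namely MCM10, which helps to start unwinding, with 0.28, and the 4 GINS subunits GINS1 with 0.37, GINS2 with 0.22, GINS3 with 0.30 and GINS4 with 0.18. GINS1 (ENSG00000101003, chr20:25407727-25452628, plus) was at 52.6, 45.6, 46.3 and 42.4 CPM in WT and at 62.0, 57.9, 57.5 and 64.1 CPM in shTST (SE 0.0597, edgeR adjusted p = 0.000252). The groups were separate, with WT replicate 1 nearest to shTST. CDC45, the third part of the active helicase, was at 30.8 ± 0.901 CPM in WT and 29.1 ± 0.840 CPM in shTST (SD, n = 4 each) and did not pass (log2 fold change −0.08, edgeR adjusted p = 0.366). The call of GINS4 was the weakest of these. Its edgeR adjusted p of 0.0390 rose to 0.0564 with a correction for GC content. It was 0.0543, 0.0905 and 0.112 when shTST replicates 1, 2 or 4 were left out, and 0.0640, 0.104 and 0.0812 when WT replicates 2, 3 or 4 were.

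Of 9 DNA polymerase and primase genes, POLD3, an accessory subunit of polymerase delta, was the 1 that passed in shTST (log2 fold change 0.27, edgeR adjusted p = 0.00881), rising from 14.5 ± 0.363 to 17.5 ± 1.21 CPM (SD, n = 4 each). Catalytic subunits lay near or below 0 on the log2 scale and did not pass, with −0.01 for POLA1, −0.06 for POLD1 and −0.03 for POLE. The primase subunits PRIM1 and PRIM2 had 0.17 and 0.14, the accessory subunits POLA2 and POLE2 0.12 and 0.10, and POLD2 −0.11, without passing. The adjusted p of POLD2, 0.116 here, was 0.0409 with the replicate number as a block and 0.0440 without shTST replicate 3. Of the clamp and its loader, 4 of 5 genes were called. PCNA (ENSG00000132646, chr20:5114953-5126626, minus) was at 355, 312, 361 and 335 CPM in WT and at 431, 416, 427 and 426 CPM in shTST. Its shTST libraries agreed closely and were all above WT, with a log2 fold change of 0.32 (SE 0.0467, edgeR adjusted p = 0.000106). Of the replication factor C subunits, RFC2 rose by 0.22, RFC4 by 0.20 and RFC5 by 0.16 on the log2 scale, and RFC3 had 0.10 and did not pass. RFC4 lost its call when shTST replicates 1 (edgeR adjusted p = 0.0907) or 4 (0.0830) or WT replicates 1 (0.0523), 2 (0.0777) or 4 (0.0559) were left out, and RFC5, at an adjusted p of 0.0485, without any 1 of shTST replicates 1, 2 and 3 or WT replicates 2, 3 and 4 (0.0534 to 0.126). With a GC correction both lost it (0.0616 and 0.113), and RFC5 also with a length correction (0.0506).

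Okazaki fragment processing is carried out by the flap endonuclease FEN1 and DNA ligase LIG1, of which FEN1 rose by 0.20 (edgeR adjusted p = 0.00364) and LIG1 had 0.10 and did not pass. FEN1 overlaps FADS2 and TMEM258, with which it could share reads. Among the 4 genes of deoxynucleotide supply, RRM1, the large subunit of ribonucleotide reductase, had 0.16 (edgeR adjusted p = 0.0354) and TYMS 0.14 (0.0329). RRM2, the small subunit, was at 261 CPM in both groups, and TK1 had 0.04. RRM1 lost its call when WT replicates 2 (adjusted p 0.110) or 3 (0.0720) or shTST replicates 2 (0.0859) or 4 (0.104) were left out, and with a GC correction (0.0990). TYMS lost it when WT replicates 2 (0.0752) or 4 (0.110) or shTST replicates 1 (0.0682), 3 (0.0687) or 4 (0.0905) were. TYMS overlaps ENOSF1 and TYMSOS on the opposite strand, and whether strand was used in counting is not given in the sources used here.

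Of the G1/S regulators, CCNE1, which encodes cyclin E1 (ENSG00000105173, chr19:29811898-29824308, plus), rose from 37.6, 34.8, 35.2 and 36.3 CPM in WT to 41.8, 44.5, 41.3 and 40.9 CPM in shTST. The groups were separate, with a log2 fold change of 0.23 (SE 0.0523, edgeR adjusted p = 0.00471). CCND1, E2F1 and E2F2 did not pass, with values of 0.02, −0.04 and 0.14. CCNE2 had 0.34 with a SE of 0.208, too wide at its depth to show a change of that size. The largest change of the 46 was in UHRF1, which recognises hemimethylated DNA behind the fork and recruits the maintenance methyltransferase (ENSG00000276043, chr19:4903080-4962154, plus). UHRF1 was at 126, 130, 119 and 109 CPM in WT and at 162, 150, 186 and 172 CPM in shTST. Every shTST library was higher, by 38.4% on average, with a log2 fold change of 0.47 (SE 0.0596, edgeR adjusted p = 2.89e-05). CHAF1B, a subunit of chromatin assembly factor 1, had 0.18 (adjusted p 0.0245), and lost its call when WT replicate 3 (0.0645) or shTST replicates 3 (0.0801) or 4 (0.0572) were left out. CHAF1A had 0.14 and missed the threshold at 0.0504, and it passed in 9 of the other settings, among them DESeq2 (0.0342), the length correction (0.0357) and the GC correction (0.00669).

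**Figure D3:**
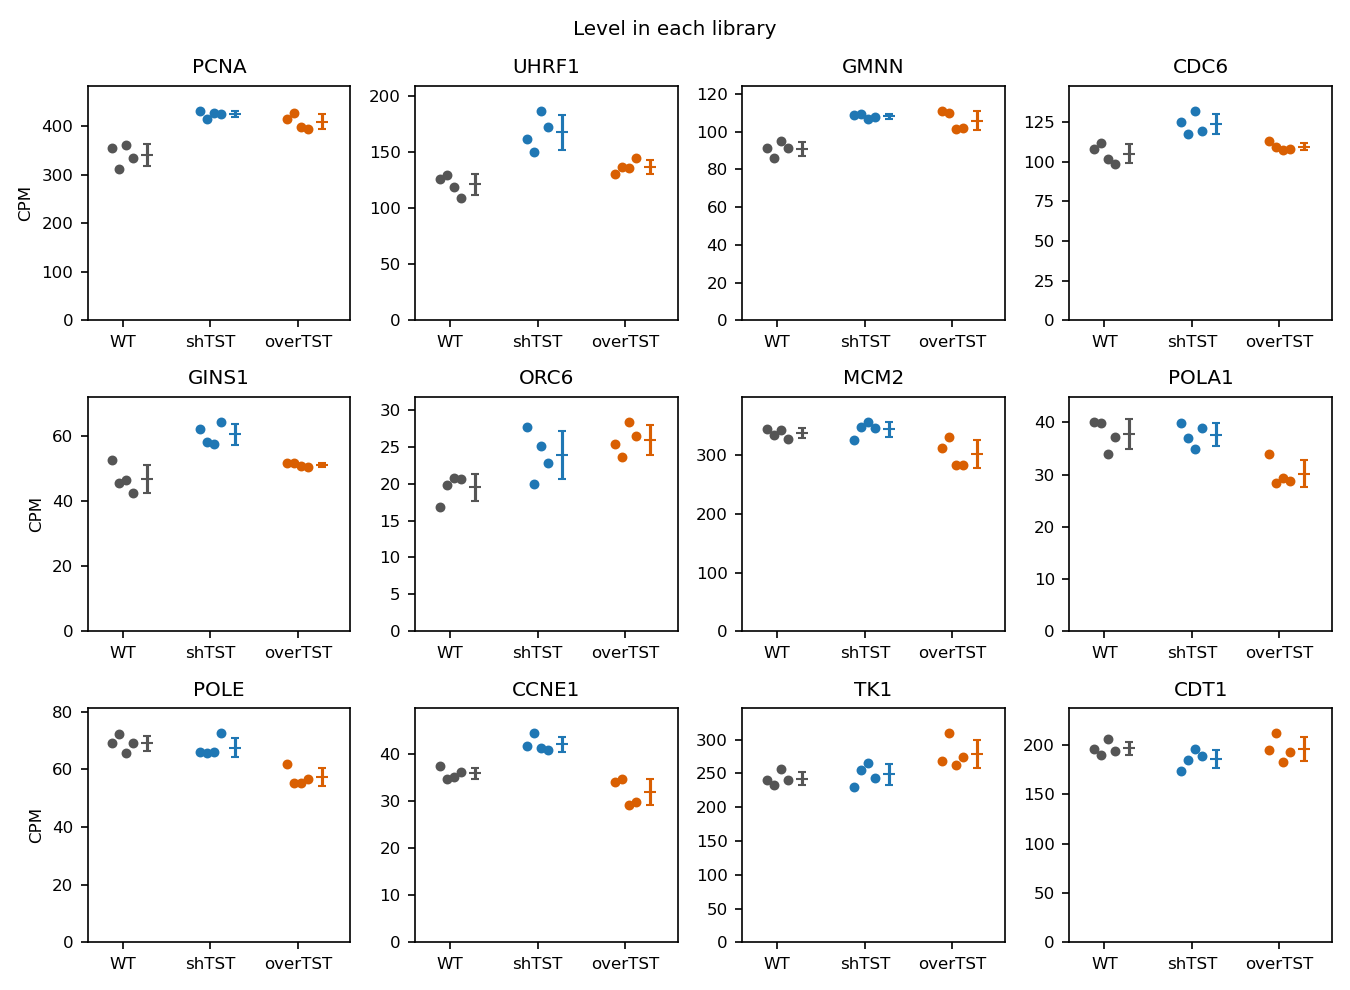
CPM of 12 genes in each library of WT, shTST and overTST (points), with the group mean and SD (bars at the right of each group, n = 4), on axes that start at 0. PCNA and GMNN are above WT in all 8 libraries of both lines, UHRF1 is highest in shTST, POLA1 and POLE are lowest in overTST, and CDT1 overlaps in all 3 groups.

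In overTST cells fewer of the replication genes differed from WT, and they went both ways. Of the 46 genes 9 passed (19.6%), 6 higher and 3 lower, beside 33.9% of the 14421 genes tested, of which 15.7% were higher and 18.2% lower. The share in the set was thus under that of all genes. The median log2 fold change of the 46 was 0.05, beside 0.00192 over all genes, and 28 were positive. At an unadjusted p under 0.05 there were 15, again without a share of all genes to set beside them. Higher were ORC6, PCNA, GMNN, TK1, RFC2 and UHRF1, and lower POLE, POLA1 and MCM2. With upper-quartile scaling the split was 9 higher and 2 lower. Over all genes that scaling moved the calls from 2265 higher and 2628 lower to 2700 and 2292. Leaving out 1 library at a time gave 8 to 11 genes. Both comparisons with WT use the same 4 WT libraries, so their values are set side by side here and not counted as separate support. ORC6, GMNN, PCNA, RFC2 and UHRF1 passed in both, all 5 upward. How many of all genes passed in both in the same direction was not computed.

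Changes in overTST ran with gene length over the whole transcriptome. Across all genes tested, Spearman's rho between the log2 fold change and exonic length was −0.40 in overTST against WT and −0.09 in shTST against WT, and across the 46 genes −0.30 and −0.07 (descriptions across genes of the same libraries, which are not independent). After a correction that removed this trend in each library, 8 of the 46 genes passed in overTST, 5 higher and 3 lower, beside 28.4% of all genes, and 3 of them, ORC6, UHRF1 and POLA1, were among the 9 above. GMNN, MCM2, PCNA, POLE, RFC2 and TK1 dropped out. MCM4 (0.15), MCM5 (0.15) and LIG1 (0.13) came in as higher, and CCNE1 (−0.27) and RFC3 (−0.20) as lower, all on the log2 scale. The median of the 46 genes became 0.02. In shTST the same correction left 20 genes, 19 of them shared, beside 17.7% of all genes.

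**Figure D4:**
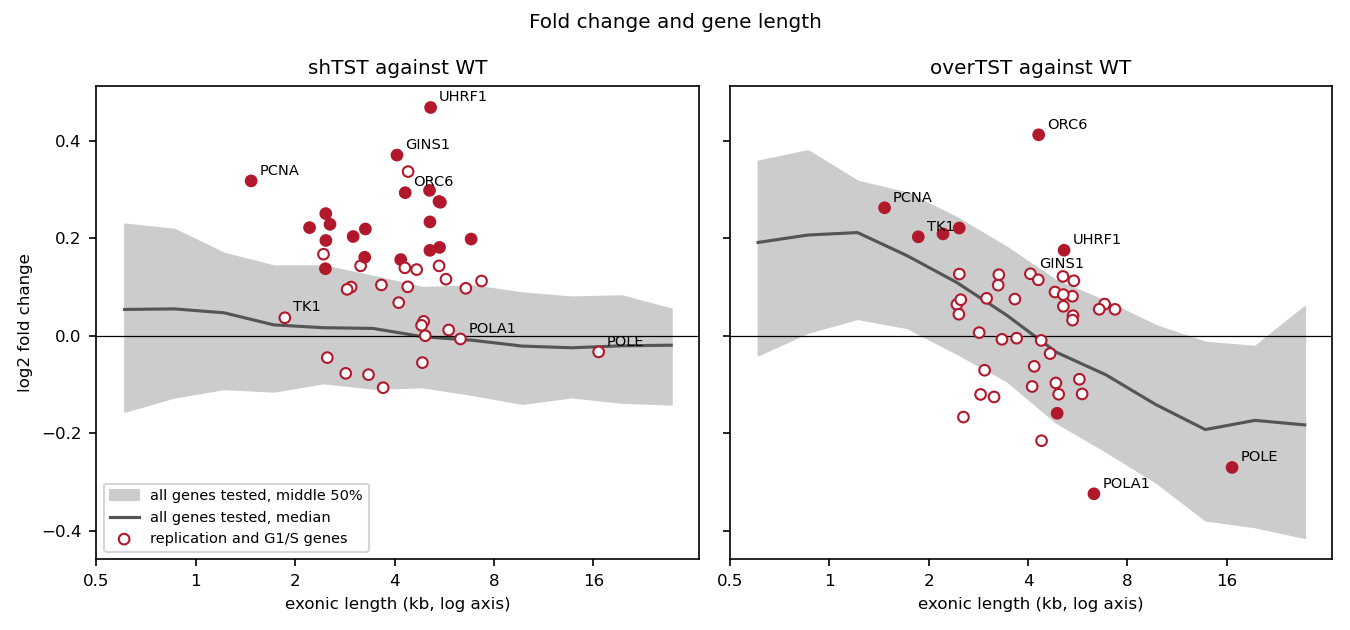
Log2 fold change against exonic length (kb, log axis) in shTST against WT and overTST against WT. The grey line and band are the median and middle 50% of all genes tested in bins of length, and points are the 46 genes, filled where they passed (edgeR). In overTST the short genes PCNA and TK1 lie near the upward part of the trend and the long gene POLE near its lower part, while ORC6 and POLA1 lie away from it; in shTST the line is nearly flat.

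ORC6 had the largest rise in overTST, to 25.3, 23.6, 28.3 and 26.5 CPM, all above the WT libraries given before, with a log2 fold change of 0.41 (SE 0.0769, edgeR adjusted p = 0.00021) and 0.42 after the length correction. PCNA was at 415, 428, 399 and 395 CPM and GMNN at 111, 110, 101 and 102 CPM in overTST, again above every WT library, with log2 fold changes of 0.26 (edgeR adjusted p = 0.000394) and 0.22 (0.00170). The calls of both were lost with the length correction, where the values were 0.10 (0.154) and 0.12 (0.0807). TK1 (ENSG00000167900, chr17:78174075-78187233, minus) rose from 240, 233, 256 and 240 CPM in WT to 269, 310, 263 and 274 CPM in overTST, a log2 fold change of 0.20 (edgeR adjusted p = 0.00434), and was at 230, 256, 266 and 243 CPM in shTST. Its groups were separate in overTST, and with the length correction its value was 0.05 (0.436). RFC2 had 0.21 (0.00494), and 0.08 (0.277) with the correction. UHRF1 was at 130, 137, 135 and 145 CPM in overTST, between WT and shTST, with a log2 fold change of 0.18 (0.0155). Without overTST replicate 4 its adjusted p was 0.0650 and without WT replicate 4 it was 0.0839, while the length correction gave 0.22 (0.00313). CDC6, at 113, 109, 108 and 108 CPM in overTST, overlapped WT (log2 fold change 0.06, adjusted p 0.385), and GINS1, at 51.5, 51.6, 50.7 and 50.3 CPM, did too (0.13, 0.116). CCNE1 was below every WT library in all overTST libraries and missed the threshold (log2 fold change −0.17, edgeR adjusted p = 0.0546). It passed as lower in some other settings, among them the length correction (0.00377) and the GC correction (0.0226).

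The genes that were lower in overTST were a pair of catalytic polymerase subunits and MCM2. POLA1, the catalytic subunit of polymerase alpha, which starts each new strand (ENSG00000101868, chrX:24693919-24996986, plus), was at 40.1, 39.9, 33.9 and 37.2 CPM in WT, at 39.9, 37.0, 34.9 and 38.9 CPM in shTST and at 34.0, 28.5, 29.3 and 28.9 CPM in overTST. Apart from overTST replicate 1, which reached the lowest WT library, all overTST libraries were below the others, with a log2 fold change of −0.32 (SE 0.0706, edgeR adjusted p = 0.000955) and −0.25 (0.00533) after the length correction. POLE, the catalytic subunit of polymerase epsilon (ENSG00000177084, chr12:132623753-132687365, minus), has the longest exonic sequence of the 46 at 16609 bases. It was at 69.3, 72.1, 65.8 and 69.3 CPM in WT, at 65.9, 65.6, 66.2 and 72.6 CPM in shTST and at 61.9, 55.4, 55.2 and 56.7 CPM in overTST, where it was below both other groups in every library. The log2 fold change against WT was −0.27 (SE 0.0549, edgeR adjusted p = 0.000508), and −0.07 (0.321) with the length correction. MCM2 (ENSG00000073111, chr3:127598223-127622436, plus) was at 345, 335, 342 and 326 CPM in WT, at 326, 348, 356 and 346 CPM in shTST and at 312, 330, 282 and 283 CPM in overTST. Replicate 2 of overTST lay inside the WT range. The log2 fold change of −0.16 (edgeR adjusted p = 0.0214) lost its call when overTST replicates 3 (0.104) or 4 (0.0867) or WT replicate 1 (0.0643) were left out, and with the length correction (0.0602) or upper-quartile scaling (0.0554).

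Tested directly against each other in a fit of all 12 libraries, the lines differed in 16 of the 46 genes (34.8%), 15 higher and 1 lower in shTST, beside 33.0% of the 14883 genes tested, 16.9% higher and 16.1% lower. The share called was thus close to that of all genes, while the direction was nearly all upward. The median log2 difference, shTST minus overTST, was 0.12 over the 46 genes and 39 were positive. CCNE1 differed most clearly, at 34.2, 34.7, 29.3 and 29.8 CPM in overTST against the shTST libraries given before, with a log2 difference of 0.40 (SE 0.0609, edgeR adjusted p = 3.06e-05). No overTST library reached the lowest shTST library, and the value was 0.48 after the length correction. UHRF1 had 0.29 (edgeR adjusted p = 0.000476), POLA1 0.32 (0.000746), POLE 0.24 (0.001), GINS1 0.24 (0.00215), MCM2 0.19 (0.00448) and CDC6 0.17 (0.00765). ORC1, RFC3, RRM1, POLA2, MCM6, MCM4, MCM10 and RRM2 were also higher in shTST, with values of 0.12 to 0.27. TK1 was the 1 gene that was lower, at −0.17 (0.0171).

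With the length correction 17 genes were higher in shTST and 0 lower, beside 27.7% of all genes, and 10 of them were among the 16. POLE (0.06) and TK1 (−0.03) were among those that dropped out, and PCNA (0.20), TYMS (0.18), FEN1 (0.16) and GMNN (0.12) among those that came in. Across genes, Spearman's rho between this difference and exonic length was 0.36 over all genes and 0.37 over the 46. CCNE1, UHRF1, POLA1, GINS1, MCM2 and CDC6 passed in all of the 23 other settings tried. Without overTST replicate 3, 10 of the 46 genes passed, where MCM4, MCM10, ORC1, POLA2, RRM1 and RRM2 were lost, and without overTST replicate 4, 12 passed. The overTST libraries were not alike in these genes. ORC1, for instance, was at 33.0 and 32.1 CPM in replicates 1 and 2 and at 23.1 and 24.9 CPM in replicates 3 and 4. The adjusted p of ORC1 was 0.0156 with all libraries, 0.0972 without overTST replicate 3 and 0.0715 without replicate 4. For TK1 it was 0.109 without overTST replicate 2, 0.0793 without shTST replicate 1 and 0.0545 without shTST replicate 4, and for RRM2, at 0.0484, leaving out any 1 of 8 libraries ended the call (all but WT replicates 2 and 3, shTST replicate 3 and overTST replicate 1). MCM4, MCM6 and MCM10 lost theirs without shTST replicate 3 (0.0579, 0.0562 and 0.0850) or overTST replicate 4 (0.0777, 0.0934 and 0.111), MCM4 and MCM10 also without overTST replicate 3 (0.0585 and 0.145), and POLA2 (0.0636) and RRM1 (0.0520) without overTST replicate 3. With a GC correction 16 genes were higher and 0 lower, and 10 of them were shared.

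**Figure D5:**
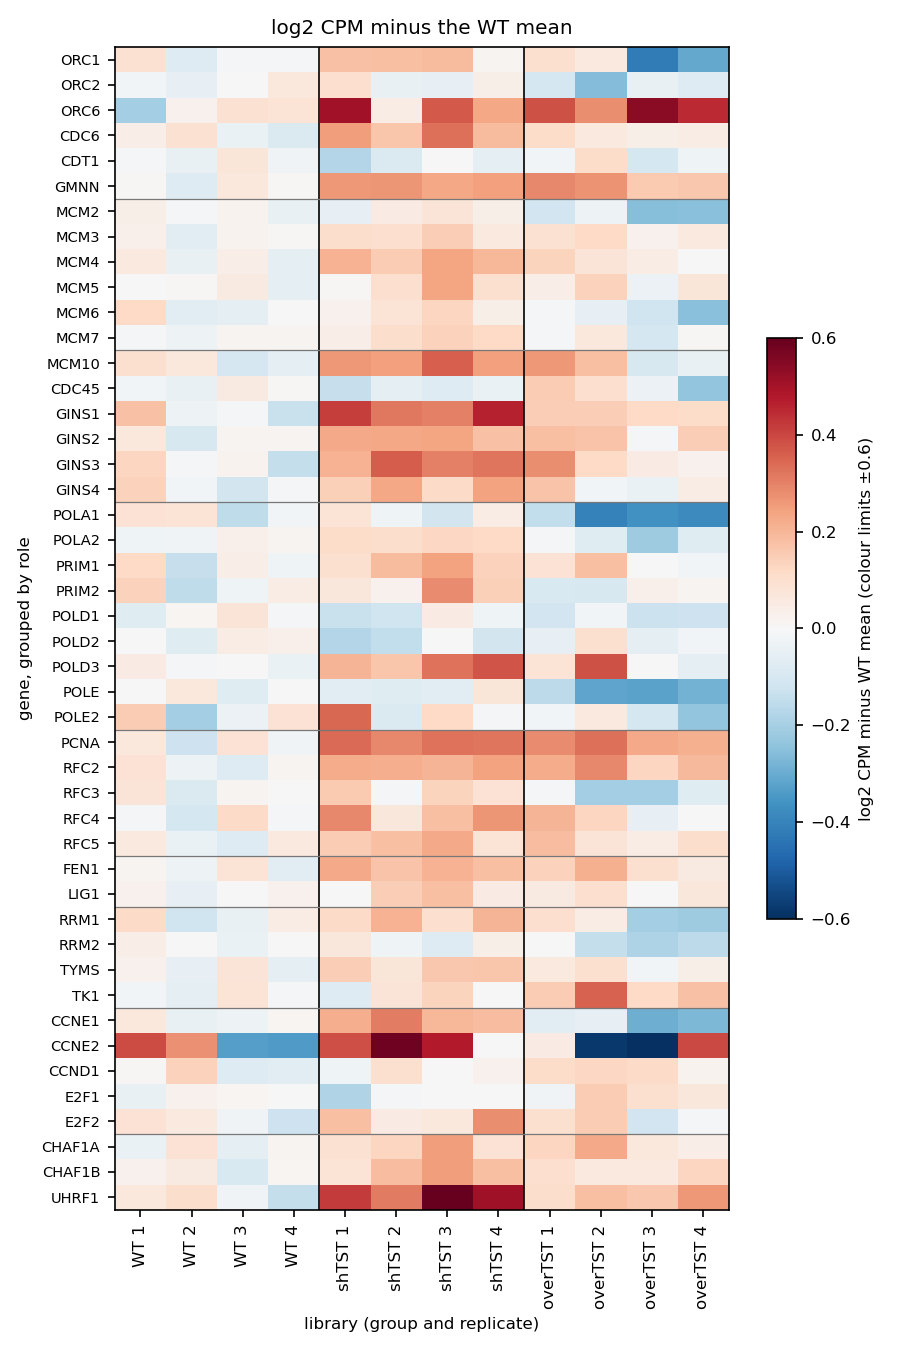
Log2 CPM minus the WT mean for the 46 genes (rows, grouped by role) in 12 libraries (columns), from blue (lower) through white to red (higher), with end colours for values beyond 0.6. The shTST columns are mostly red, with UHRF1 the deepest among well-counted genes. The overTST columns are mixed, with replicates 1 and 2 redder than 3 and 4, and CCNE2 varies within every group.

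Over the 3 comparisons, 29 of the 46 genes passed at least 1 and 17 passed none. No share of all genes was computed to set beside this count. Genes of the set with and without the E2F pattern were among the 29. In shTST against WT, 4 of 17 called genes with a promoter window held TTTNGCGC and 10 of the other 23 did. In overTST against WT the pattern lay in 4 of 9 called and 10 of 31 other genes, and in shTST against overTST in 7 of 15 and 7 of 25. These are descriptions over few genes.

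Other genes of the same pathways were counted from the same fits. Over all genes tested, 16.1% were called in shTST against WT, 33.9% in overTST against WT and 33.0% in shTST against overTST. Of 28 tested CDK, RB and E2F regulators, 9 were higher and 3 lower in shTST (42.9% called). In overTST 2 were higher and 6 lower (28.6%), under the share of all genes. In shTST against overTST 14 were higher and 2 lower (57.1%). This last count of 16 was 8 without overTST replicate 2 and 10 without shTST replicate 4. CDKN1A, which encodes the CDK inhibitor p21, was higher in both lines, at 81.7 ± 2.6 CPM in shTST and 85.8 ± 2.19 CPM in overTST against 66.0 ± 6.39 CPM in WT (SD, n = 4 each), with log2 fold changes of 0.31 (edgeR adjusted p = 0.000951) and 0.38 (3.42e-05). SKP2, an F-box protein that marks p27 for destruction, rose by 0.28 in shTST. The CDK4/6 inhibitor CDKN2B (−0.50) and cyclin D3 (CCND3, −0.28) were lower there. In overTST the transcription factor MYC (−0.38) and the G1 kinase CDK6 (−0.40) were lower, and FBXW7, which targets cyclin E for destruction, was higher (0.39). With the length correction these values were −0.45, −0.22 and 0.54, and all passed. MYC was called lower in shTST against WT as well. That call was lost without shTST replicate 2 (log2 fold change −0.14, edgeR adjusted p = 0.0543). Against overTST, shTST was higher in CDK6 (0.51) and the RB relative RBL1 (0.46), and lower in CCND3 (−0.28) and CDKN2A (−0.26). The last call ended when overTST replicate 2 (0.0952) or shTST replicates 1 (0.0881) or 4 (0.0644) were left out, and with a GC correction (0.230).

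Of 33 other replication fork genes, 8 were higher and 1 lower in shTST (27.3% called, beside 16.1% of all genes). In overTST 3 were higher and 3 lower (18.2%), under the 33.9% of all genes. In shTST against overTST 14 were higher and 4 lower (54.5%, beside 33.0%). In overTST 10 passed without replicate 1 of that line. CDCA7, a nucleosome remodelling cofactor, rose by 0.43 in shTST and the single-strand binding subunit RPA2 by 0.34, while the polymerase delta subunit POLD4 had −0.38, with an adjusted p of 0.0140 that was 0.0579 without shTST replicate 3. In overTST the checkpoint mediator CLSPN rose by 0.49 (edgeR adjusted p = 3.86e-07), from 47.7 ± 1.48 to 67.0 ± 2.26 CPM (SD, n = 4 each), and POLE4 by 0.33, while TOPBP1 (−0.28) and RFC1 (−0.23) were lower. Between the lines TOPBP1 (0.37) and CDCA7 (0.44) were higher and POLE4 (−0.33) and POLD4 (−0.43) lower in shTST. Of 17 nucleotide and S-phase chromatin genes, 5 were higher and 0 lower in shTST (29.4%), and 5 and 3 in overTST (47.1%). Between the lines 4 were higher and 1 lower in shTST (29.4%), close to the 33.0% of all genes. The histone chaperones NASP (0.32 in both comparisons with WT) and ASF1B (0.35 in shTST and 0.27 in overTST) led the higher genes, ASF1B in overTST not holding with the length correction (adjusted p 0.0560). The ribonucleotide reductase subunit RRM2B and the maintenance methyltransferase DNMT1 were lower in overTST than in WT (−0.38 and −0.18) and than in shTST (differences of 0.38 and 0.21). With the length correction the DNMT1 values were −0.04 and 0.08 and passed in neither, nor did ASF1A, which was lower in shTST than in overTST (−0.16, and −0.07 corrected), a call that 5 single libraries could end.

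Mitosis markers, counted beside the set, were higher in 7 of 20 genes and lower in 0 in shTST (35.0% called, beside 16.1% of all genes). In overTST 1 was higher and 7 lower (40.0%), close to the 33.9% of all genes. In shTST against overTST 13 were higher and 0 lower (65.0%, beside 33.0%). Their summed level was 3315 ± 96.5 CPM in WT, 3457 ± 43.8 CPM in shTST and 3050 ± 108 CPM in overTST (SD, n = 4 each). KIF20A (0.25) and UBE2C (0.19) led the rise in shTST, a count of 7 that was 4 without WT replicate 2, 4 without shTST replicate 1 and 3 with a GC correction, and UBE2C had an adjusted p of 0.0529 without shTST replicate 3. The proliferation antigen MKI67 was at 354 ± 26.9 CPM in WT, 329 ± 8.44 CPM in shTST and 253 ± 26.3 CPM in overTST (SD, n = 4 each). MKI67 was not called in shTST against WT with all libraries. Without WT replicate 3 it was called lower there (log2 fold change −0.15, edgeR adjusted p = 0.0219), beside 6 markers called higher. It fell in overTST by 0.48 on the log2 scale (edgeR adjusted p = 4.55e-06), as did the checkpoint kinase BUB1 by 0.39, and after the length correction by 0.30 and 0.33. AURKB was the 1 marker higher in overTST (0.14), and was not called with the length correction (adjusted p 0.786) or when overTST replicates 2 (0.0707) or 4 (0.0894) or WT replicate 2 (0.0858) were left out. Between the lines MKI67 (0.38) and CENPF (0.30) had the smallest p, both higher in shTST. The paper reports from a BrdU assay that cell proliferation was decreased both by TST overexpression and by TST silencing. In shTST against WT with all libraries, the called genes of the set and the called mitosis markers were all higher, which is the other direction. How the RNA levels relate to that assay, or to the share of cells in mitosis or S phase in the sequenced cultures, was not tested.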

How the data were processed

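RNA of 12 HepG2 libraries was sequenced by Azenta Life Sciences. The authors deposited whole-number read counts per Ensembl gene, not normalized, with exon positions and exonic length. The submitters' processing notes name Trimmomatic 0.36, STAR 2.5.2b, featureCounts of Subread 1.5.2 and GRCh38. Annotation release and use of strand are not given in the sources used here. Groups and replicate numbers came from the sample titles, and glycine dose and time from the study's methods. The study's methods define independent experiments in general as runs on separate days, and the labels do not tie a replicate number to a day. The p-values measure the spread between these samples, and not a spread between separately made lines. No 2 replicates agreed within sampling noise (chi-square per gene 3.675 or more).

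Genes were filtered with filterByExpr, scaled by TMM and tested with edgeR 4.0.16's quasi-likelihood test in R 4.3.3, with Benjamini-Hochberg adjustment over all genes tested, on the 8 libraries of each comparison with WT and on all 12 for shTST against overTST. A gene is called at an adjusted p of 0.05 or less. Standard errors were derived from each fold change and its F statistic (absolute value over root F). CPM and RPKM used 1 TMM scaling of all 12 libraries, and log2 CPM a prior count of 2. Depth sets the counting error. Trends with length or GC content were removed per library by lowess (span 0.3). GC content is that of the longest GENCODE 29 transcript, and this correction was chosen after seeing the data. Other alternatives were DESeq2 1.42.0, limma-voom (limma 3.58.1), RLE and upper-quartile scaling, no filter or more than 1 CPM in 4 libraries, another set of libraries in the fit, the replicate number as a block, and leaving out each library. The fits were tested on simulated data.

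Genes with values in every library were PCNA and CDC6 and, in each comparison, the 4 higher and 4 lower members with the smallest p among those called. From each other list the 2 higher and 2 lower called genes with the smallest p were named. Members and lists were chosen with earlier results of these data known. Symbols came from the name table, and gene positions are those of the count files. Of the 46 members, 19 overlap another annotated gene and could share reads with it, and their named pseudogenes held at most 4 counts. Figures used matplotlib 3.10.9.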

Additional observations from a re-analysis of the deposited data

Results flagged for a closer look

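In 138 groups of 4 libraries (46 genes in 3 groups), 8 had 1 library far from the other 3 by Dixon's test, and chance flags about 1 in 20 groups. In shTST these were ORC1 in replicate 4 (31.2 CPM, lowest), MCM10 in replicate 3 (51.9 CPM, highest), GINS2 in replicate 4 (89.1 CPM, lowest), POLE in replicate 4 (72.6 CPM, highest) and E2F1 in replicate 1 (95.9 CPM, lowest). In overTST they were POLA1 in replicate 1 (34.0 CPM, highest), POLD1 in replicate 2 (91.5 CPM, highest) and CCND1 in replicate 4 (420.1 CPM, lowest).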

How the results depend on the processing

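Over the alternatives, 15 to 24 of the 46 genes were called in shTST against WT, 8 to 12 in overTST against WT and 10 to 19 in shTST against overTST. No fold change of a gene that was called reversed. Leaving out each library gave 15 to 19, 8 to 11 and 10 to 19, the 10 without overTST replicate 3, and the cause was not tested. Correlations of same-numbered libraries were weak (−0.0527 to 0.0801), beside −0.106 to 0.0781 for differently numbered ones. With so few replicates they cannot decide whether the numbers pair the samples. A fit with the replicate number as a block called 24, 12 and 19 of the genes. Over all genes in shTST against WT it called 2980, beside 2346 without the block. The GC correction, chosen after seeing the data, left 3 of the 7 mitosis markers called in shTST, and the length correction 5 of the 8 nucleotide and S-phase chromatin genes called in overTST. Other motifs gave other shares, CCAAT lying in 55.0% of the 40 promoters and 35.56% of all, and the shorter GCGCNAA, which overlaps TTTNGCGC, in 45.0% and 7.79%. Depth limits CCNE2 (513 counts in all).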
